A study of Saccharomyces cerevisiae with 68 samples.

Results

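The NAD synthesis and salvage genes described here are 9 budding yeast genes, taken by gene symbol from the 5449 S. cerevisiae genes on the arrays: BNA2, BNA7, BNA4, BNA5, BNA1, BNA6, TNA1, NPT1 and PNC1. Each is read by 1 probe set. Their locus tags are YJR078W, YDR428C, YBL098W, YLR231C, YJR025C, YFR047C, YGR260W, YOR209C and YGL037C, in that order. The study measured newly made and steady-state RNA on Affymetrix arrays in strains that lack subunits of SAGA, a transcription coactivator. SAGA carries a histone acetyltransferase (Gcn5), a histone H2B deubiquitinase (Ubp8), the subunits Spt3 and Spt8 that contact the TATA-binding protein, and the structural subunits Spt7 and Spt20. All strains share the parental strain FY406 and were grown in the rich medium YPD at 30 °C, then given 5 mM 4-thiouracil for 6 min. S. pombe cells labelled alongside were mixed into every culture before extraction as a spike-in. Newly made (nascent) RNA is the thiolated RNA pulled down on streptavidin beads, and total RNA is the unfractionated extract. Total RNA was compared between wild type (WT, n = 6 arrays) and strains deleted for spt20 (n = 2), spt7 (n = 4), ubp8 (n = 4), gcn5 (n = 4), ubp8 and gcn5 (ubp8_gcn5, n = 4), spt3 (n = 2), spt8 (n = 2), or spt3 and gcn5 (spt3_gcn5, n = 2). Nascent RNA was compared for the same strains except spt7, with 4 arrays for spt20 and otherwise the same numbers. The labels speak of 2 independent biological replicates of each deletion strain, so some of the groups of 4 may hold repeat arrays of one culture, and p-values measure the spread between arrays. They do not say how many clones of a strain were used.

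NAD is a redox cofactor and the substrate of the sirtuin deacetylases. Yeast makes it from tryptophan along the kynurenine pathway: BNA2 encodes the dioxygenase that opens the tryptophan ring, BNA7 the formamidase, BNA4 the kynurenine monooxygenase, BNA5 kynureninase, BNA1 the 3-hydroxyanthranilate dioxygenase, and BNA6 the quinolinate phosphoribosyltransferase that yields nicotinic acid mononucleotide. The same intermediate is reached from nicotinic acid, which the permease TNA1 imports and NPT1 joins to phosphoribose. PNC1, a nicotinamidase known to rise under stress, turns the nicotinamide released by sirtuins back into nicotinic acid. The BNA genes are known to be held down by the NAD-dependent deacetylase Hst1 with Sum1.

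Levels are given as log2 signal minus the median of all S. cerevisiae genes on the same array, so 0 is the median gene and a change shared by all genes is removed. Scaled to the S. pombe spike-in instead, the median gene itself shifted between strains by -3.27 to 0.45 in nascent RNA and by -1.15 to 0.36 in total RNA, so every change below is relative to the median gene. In bulk cultures, less RNA per cell and fewer expressing cells cannot be told apart. The arrays fell into 2 sets by their S. pombe genes, which should be alike on all of them: WT replicates 7 and 8 with spt3_gcn5, and the rest. Between sets the mean Spearman correlation of S. pombe genes was 0.465 in nascent and 0.744 in total RNA, against 0.927 and 0.973 within the larger set. The labels give no reason, so each strain was compared with the WT arrays of its own set (replicates 3 to 6, n = 4, or replicates 7 and 8, n = 2). Within the larger nascent set the arrays of spt3, spt8 and gcn5 replicate 2 also stood apart, with mean correlations to WT of 0.823 to 0.864 against 0.917 to 0.966 for the others. Each deleted gene lay below all WT arrays in every array used. A gene is called changed at an adjusted p under 0.05 (limma, over 4087 genes) and a log2 change of at least 0.5, which is 1.41-fold. BNA2 lay among the dimmest 25% of genes in both fractions and was left out of that test; its values come from the same fit over all 5449 genes.

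The strain without both Spt3 and Gcn5 showed the widest effect on these genes. In total RNA 8 of the 8 tested members fell, where 15% of all tested genes were called lower and 32.9% were called in either direction. In its nascent RNA the same 8 fell, against 12.1% called lower and 29.3% in either direction. The median change of the tested members was -1.73 in total and -1.28 in nascent RNA, against -0.03 and 0.00 for all genes. In the other strains the genes split. Loss of Gcn5 lowered 4 members of 8 and raised 1 in both fractions. In total RNA 16% of all genes were called (7.36% lower, 8.64% higher), and in nascent RNA 17.1% (10.7% lower, 6.34% higher). Loss of Ubp8 raised 3 of 8 and lowered none by this test in either fraction, where 4.33% of genes were called higher in total and 3.38% in nascent RNA, of 6.12% and 4.67% called in all.

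Loss of both Ubp8 and Gcn5 lowered 3 members and raised 1 in total RNA, against 21.6% of genes called (11.6% lower, 9.98% higher). Its nascent RNA had 4 lower and 1 higher, against 36.1% (28.2% and 7.88%). Loss of Spt20 lowered 3 and raised 1 in total RNA, where 28.2% of genes were called (17.5% and 10.7%). In nascent RNA it lowered 2 and raised 1, against 24.8% (14.7% and 10.1%). Loss of Spt7 lowered 2 in total RNA, where 25.9% of genes were called and 15.9% were lower, a share of the members near that of all genes. Loss of Spt3 lowered 3 and raised 2 in total RNA, against 15.3% (6.56% and 8.76%), and lowered 6 in nascent RNA, against 23.9% of genes called and 17.2% lower. Loss of Spt8 raised 2 in total RNA (12.1% called, 9.2% higher) and lowered 3 in nascent RNA (28.9% called, 23.2% lower). The spt3 and spt8 nascent counts stand beside a large change in the spike-in: 47.8% and 48.1% of S. pombe genes passed the same rule there, against 2.91% and 6.75% in their total RNA. For gcn5 these shares were 19.6% in nascent and 2.3% in total RNA. The part of the S. pombe difference in these nascent results was not tested, and total RNA is therefore described first for each gene.

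**Figure D1:**
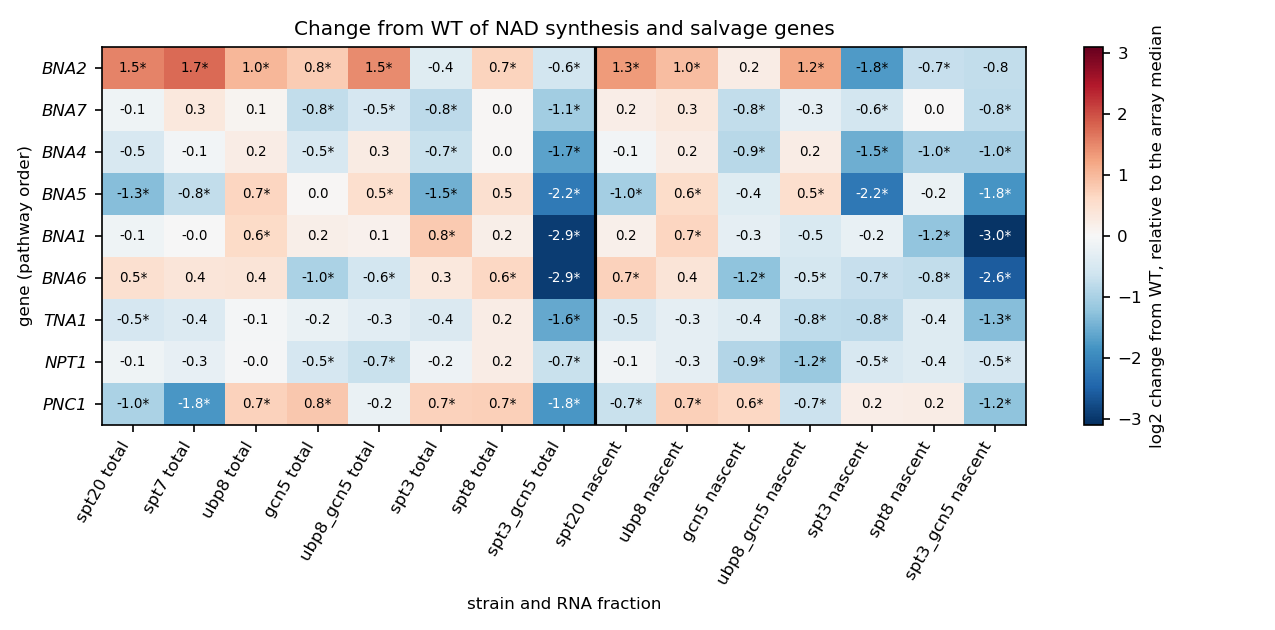
Log2 change from WT of the 9 genes (rows, in pathway order, then uptake and salvage) in each deletion strain (columns, total RNA left of the line, nascent RNA right), relative to the array median. Asterisks mark called changes. Both spt3_gcn5 columns are blue in every row, and BNA2 is red in 6 of the 8 total RNA columns.

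BNA2, at the entry of the pathway from tryptophan, rose in 6 of 8 strains in total RNA. WT replicates 3 to 6 lay at -2.36, -2.54, -2.39 and -2.61, far below the median gene, with signals of 10.6 to 13.5. The spt7 arrays lay at -0.77, -0.71, -0.77 and -0.67, a 3.35-fold rise (log2 change 1.74 ± 0.10 SE, adjusted p = 2.0e-13). Both spt20 arrays, at -0.96 and -0.93, were 2.88-fold above WT (1.53 ± 0.12, adjusted p = 1.4e-10). None of these arrays overlapped WT. The rise was 1.46 ± 0.10 in ubp8_gcn5, 1.02 ± 0.10 in ubp8, 0.78 ± 0.10 in gcn5 and 0.69 ± 0.12 in spt8. In the all-gene fit the share of genes called higher was 16.1% in spt7, 15.1% in spt20, 17% in ubp8_gcn5, 7.25% in ubp8, 11.9% in gcn5 and 8.06% in spt8. The spt3 arrays, at -2.79 and -2.92, lay below all 4 WT arrays, by 0.38 ± 0.12, which is under the size needed for a call. In spt3_gcn5 the values -2.16 and -2.81 lay below WT replicates 7 and 8 at -1.90 and -1.91 (fell by 0.58 ± 0.14, where 14.5% of genes were called lower). That call was lost without spt3_gcn5 replicate 2, at -0.26, and the fall was 0.90 without replicate 1. With 16 added to every signal, which shrinks changes of dim genes, the gcn5 and spt8 values were 0.39 and 0.37 and were no longer called.

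Nascent BNA2 followed the same order in spt20, ubp8_gcn5, ubp8 and gcn5. WT replicates 3 to 6 lay at -2.25, -2.19, -2.13 and -2.26, and the spt20 arrays at -0.92, -1.05, -0.75 and -0.82, with no overlap (1.32 ± 0.21, adjusted p = 2.2e-05). The rise was 1.20 ± 0.21 in ubp8_gcn5 and 0.96 ± 0.21 in ubp8. In the all-gene fit 14.1% of genes were called higher in spt20, 15.4% in ubp8_gcn5 and 4.66% in ubp8. The 4 gcn5 arrays lay at -1.65, -2.79, -1.71 and -1.76, so 3 were above WT and replicate 2 below it, and the mean change of 0.23 ± 0.21 was not called. Nascent BNA2 was lowest in spt3, at -3.53 and -4.42 (fell by 1.77 ± 0.26). It was also called lower in spt8, at -3.13 and -2.70 (fell by 0.71 ± 0.26), where 16.8% and 23.4% of genes were called lower. In spt3_gcn5 it lay at -3.31 and -3.1, below -2.37 and -2.52 in WT replicates 7 and 8, but the fall of 0.76 ± 0.30 had an adjusted p of 0.051. With the first principal component of the S. pombe genes in the fit, these became -0.60 and 0.37, neither of them called, and the spt8 call was also lost without spt8 replicate 1 (-0.50), spt8 replicate 2 (-0.92) or WT replicate 5 (-0.68).

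BNA7, the formamidase, fell in 4 of 8 strains in total RNA and rose in none by this test, its highest change being 0.33 in spt7. WT replicates 3 to 6 lay at 0.38, 0.51, 0.24 and 0.22. The spt3 arrays lay at -0.62 and -0.35 (fell by 0.82 ± 0.11, adjusted p = 1.5e-06), and the gcn5 arrays at -0.26, -0.44, -0.47 and -0.54 (fell by 0.76 ± 0.09, adjusted p = 1.0e-07). Both groups lay wholly below WT. The ubp8_gcn5 arrays, from -0.31 to -0.11, were lower by a smaller margin (fell by 0.52 ± 0.09), a call lost without WT replicate 4 (-0.47) or ubp8_gcn5 replicate 4 (-0.48). In spt3_gcn5, at -1.38 and -1.31 against -0.26 and -0.29 in WT 7 and 8, BNA7 was 2.10-fold lower. Nascent BNA7 in gcn5 lay at -0.61, -0.82, -0.69 and -0.74 against WT values of -0.02 to 0.15 (fell by 0.77 ± 0.08, adjusted p = 7.5e-08). Here replicate 2 lay close to the other gcn5 arrays, unlike BNA2.

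BNA4, the kynurenine monooxygenase, sat near the median gene in WT total RNA, at -0.06, -0.04, -0.12 and -0.24. It was lower in spt3, at -0.88 and -0.72 (fell by 0.68 ± 0.10, adjusted p = 8.7e-06). In spt3_gcn5 it lay at -1.21 and -1.45 against 0.38 and 0.30 in WT replicates 7 and 8, a 3.18-fold difference (fell by 1.67 ± 0.12, adjusted p = 7.0e-12). The gcn5 arrays ranged from -0.88 to -0.37, all below WT. That change of -0.51 ± 0.09 sits at the size threshold, and the call was lost without WT replicate 3 (-0.49), WT replicate 4 (-0.48), gcn5 replicate 3 (-0.42) or gcn5 replicate 4 (-0.49). In spt20 the 2 arrays at -0.64 and -0.57 also lay below WT, by 0.49 ± 0.10, just under that size. Nascent BNA4 was more scattered: the WT arrays lay at -0.09, 0.22, 0.15 and -0.61, and the gcn5 arrays, at -0.97, -1.59, -0.43 and -0.77, overlapped them (fell by 0.86 ± 0.21, adjusted p = 0.0024). This nascent call was lost with the first principal component of the S. pombe genes in the fit. Nascent BNA4 was also called lower in spt3 (-1.51), spt8 (-1.04) and spt3_gcn5 (-1.03), whose arrays lay wholly below the WT arrays of their set. The spt3 and spt8 calls were lost with the same component in the fit, and the spt8 call also on the spike-in scale. The spt3_gcn5 call was lost with 16 added to every signal.

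BNA5, kynureninase, was the only member called lower in total RNA of spt20, spt7 and spt3 alike. Total RNA levels in WT replicates 3 to 6 were -0.03, -0.30, 0.03 and -0.31. The spt3 arrays lay at -1.63 and -1.66, a 2.80-fold fall (-1.49 ± 0.10, adjusted p = 1.6e-11). The spt20 arrays lay at -1.46 and -1.48, a 2.48-fold fall (-1.31 ± 0.10, adjusted p = 3.1e-11). The spt7 arrays, at -0.77, -1.07, -0.89 and -0.93, were 1.69-fold lower (-0.76 ± 0.08, adjusted p = 1.5e-08). No array of these 3 strains reached the lowest WT array. The ubp8 arrays, at 0.47, 0.67, 0.35 and 0.53, lay above every WT array of their set (0.66 ± 0.08, adjusted p = 1.4e-06). The gcn5 arrays, at -0.11, -0.07, -0.14 and -0.21, lay inside the WT range, with a change of 0.02 (95% interval -0.14 to 0.19). BNA5 in ubp8_gcn5 was higher by 0.52 ± 0.08, a call lost without WT replicate 4 (0.47), WT replicate 6 (0.47) or ubp8_gcn5 replicate 1 (0.50). WT replicates 7 and 8 lay at 0.63 and 0.95, above the other WT arrays. Pooled with them as one group of 6 WT arrays, the ubp8 and ubp8_gcn5 changes were 0.34 and 0.21, neither called.

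BNA5 also fell in nascent RNA, by log2 changes of -2.21 ± 0.17 in spt3 (arrays at -2.28 and -2.43), -1.05 ± 0.14 in spt20 (-1.23, -1.30, -0.84 and -1.39), and -1.84 ± 0.20 in spt3_gcn5 (-1.94 and -1.68). WT replicates 3 to 6 lay at -0.03, -0.35, 0.29 and -0.49. WT replicates 7 and 8, with which spt3_gcn5 is compared, lay at 0.04 and 0.01. Each WT array lay above every array of these strains. The spt3 fall remained called, at -1.98, with the S. pombe component in the fit. The rise of 0.56 ± 0.14 in nascent RNA of ubp8 was lost without WT replicate 4 (0.49) or WT replicate 6 (0.45).

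BNA1, the 3-hydroxyanthranilate dioxygenase, and BNA6, the quinolinate phosphoribosyltransferase, showed the largest falls of the group, both in spt3_gcn5. BNA1 total RNA lay at -1.91 and -1.52 there, against 1.18 and 1.27 in WT replicates 7 and 8. That is 7.69-fold lower (fell by 2.94 ± 0.10, adjusted p = 9.3e-19). BNA6 lay at -1.03 and -0.92 against 1.95 and 1.99, which is 7.71-fold lower (fell by 2.95 ± 0.10, adjusted p = 6.4e-19). Nascent RNA gave 8.20-fold for BNA1 (arrays at -3.31 and -3.32, WT at -0.33 and -0.22) and 5.99-fold for BNA6 (-2.23 and -1.97, WT at 0.46 and 0.50). These were the strain's only arrays, and both of them lay below every WT array of either set. Scaling to the spike-in could not reverse these falls. The median gene of this strain itself shifted on that scale, by -1.15 in total and -3.27 in nascent RNA.

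In the single mutants BNA1 and BNA6 parted. BNA1 total RNA lay at 1.31, 1.43, 1.54 and 1.49 in WT replicates 3 to 6, and rose in spt3, at 2.21 and 2.28 (0.81 ± 0.09, adjusted p = 3.9e-08), and in ubp8, at 1.99, 2.00, 2.05 and 2.13 (0.60 ± 0.07, adjusted p = 3.8e-07). The spt3 call of BNA1 was lost when scaled to the spike-in. In gcn5 BNA1 was 0.19 ± 0.07 above WT, below the size for a call. BNA6 fell in gcn5, with arrays at 0.21, 0.41, 0.03 and 0.32 against WT at 1.11, 1.17, 1.30 and 1.30 (-0.98 ± 0.07, adjusted p = 6.4e-12), a 1.97-fold change. It also fell in ubp8_gcn5, at 0.75, 0.57, 0.58 and 0.74 (-0.56 ± 0.07, adjusted p = 1.2e-07). BNA6 rose by 0.64 ± 0.08 in spt8, and lay above all 4 WT arrays in spt7, ubp8 and spt3 too, by 0.38, 0.40 and 0.32, sizes under the call, although on the spike-in scale spt7 and spt3 gave -0.32 and -0.02. WT replicates 7 and 8, at 1.95 and 1.99, lay above every array of these strains. With all 6 WT arrays as one group the spt8 call was lost. In spt20 BNA6 was called higher by 0.51 ± 0.08, but lower by 0.26, without a call, when scaled to the spike-in. This spt20 call was lost with the 6 WT arrays as one group. That call was also lost without spt20 replicate 4 (0.50), WT replicate 3 (0.47) or WT replicate 4 (0.49).

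Nascent BNA1 and BNA6 varied between arrays of one strain. In gcn5, BNA1 lay at 1.4, 1.26 and 1.26 in replicates 1, 3 and 4 but at 0.02 in replicate 2. BNA6 lay at 0.39, 0.24 and 0.22 in the same 3 arrays and at -0.99 in replicate 2. Without replicate 2, nascent BNA6 in gcn5 was still called, at -0.93. That call was lost with the first principal component of the S. pombe genes in the fit. In spt3, nascent BNA1 lay at 1.38 and 0.69, the first above all 4 WT arrays (1.20 to 1.33) and the second below them, at S. pombe correlations of 0.864 and 0.828. Both spt8 arrays, at correlations of 0.845 and 0.846, had low nascent BNA1, at 0.14 and -0.06 (fell by 1.23 ± 0.26), and spt8 total RNA was 0.19 ± 0.09 above WT. With the S. pombe component in the fit, BNA1 in nascent RNA was 0.03 in spt8 and 1.13 in spt3, the latter called higher. BNA6 became 0.66 in spt8 and 0.80 in spt3, both called higher, from -0.75 and -0.73. The spt3_gcn5 falls were -3.02 for BNA1 and -2.56 for BNA6 in that fit. The call of nascent BNA1 in ubp8 (0.67 ± 0.21) had an adjusted p of 0.033 and was lost without any 1 of 7 arrays, with values of 0.60 to 0.71. Those 7 were WT replicates 3, 4 and 6 and the 4 ubp8 arrays. The nascent falls of BNA6 in ubp8_gcn5, spt3 and spt8 were likewise lost without single arrays: ubp8_gcn5 replicate 1 (-0.32) or replicate 2 (-0.49), spt3 replicate 1 (-0.91) or replicate 2 (-0.54), spt8 replicate 1 (-0.84) or replicate 2 (-0.66), and in each of the 3 strains WT replicate 4. WT replicates 5 and 6 had the same effect for ubp8_gcn5 and spt3.

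**Figure D2:**
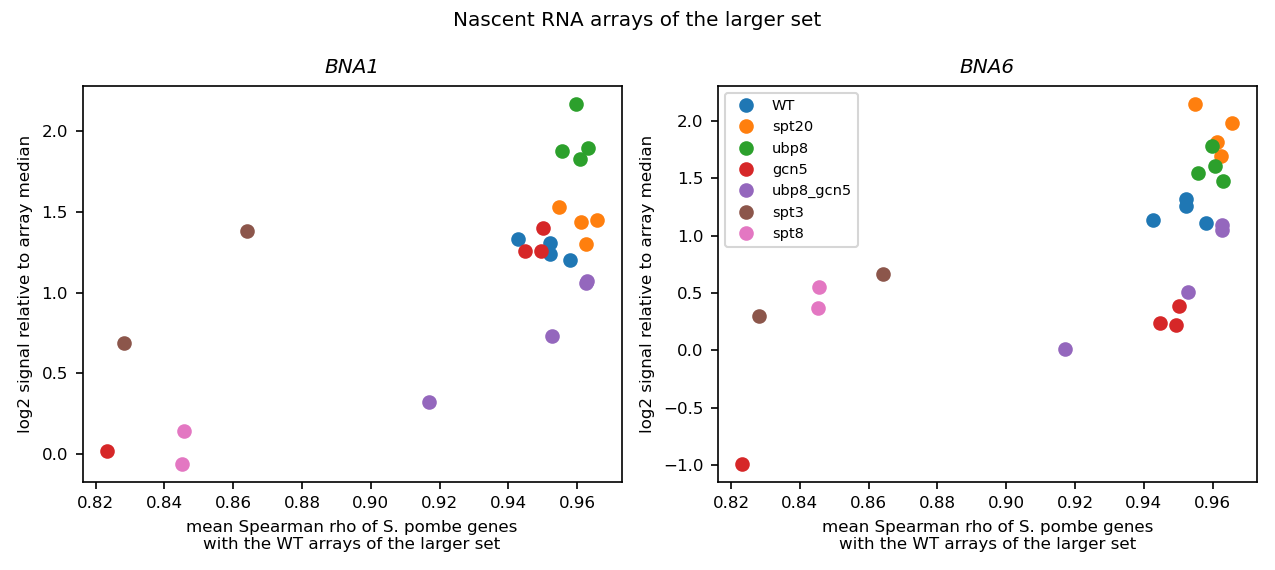
Nascent log2 signal of BNA1 (left) and BNA6 (right), relative to the array median, against the array's mean Spearman correlation of S. pombe genes with the WT arrays of the larger set; 1 point per array, coloured by strain. gcn5 replicate 2, at a correlation of 0.823, is far below the other 3 gcn5 arrays for both genes, and the spt3 and spt8 arrays also lie left of the rest.

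TNA1, the nicotinic acid permease, was not called higher in any strain. In total RNA of spt3_gcn5 it lay at 0.54 and 0.37, against 2.04 and 2.03 in WT replicates 7 and 8, which is 3.00-fold lower (fell by 1.58 ± 0.08, adjusted p = 1.3e-14). Those WT levels were themselves well above WT replicates 3 to 6, at 0.80, 0.75, 0.88 and 0.73, and the spt3_gcn5 arrays lay below both groups of WT. Against WT 3 to 6, spt20 was lower, at 0.29 and 0.25 (-0.52 ± 0.07, adjusted p = 9.0e-07), a call lost without WT replicate 5 (-0.49). The spt3 and spt7 arrays lay below WT by 0.44 and 0.42, short of the call, although their adjusted p-values were 2.4e-05 and 9.7e-07. Nascent TNA1 varied more in WT, at 0.87, 0.53, 1.41 and 0.48. It was lowest in spt3, at 0.00 and 0.01 (-0.82 ± 0.15), and in ubp8_gcn5, at 0.03, -0.02, 0.02 and 0.16 (-0.78 ± 0.13). Both lay below every WT array.

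NPT1, which feeds nicotinic acid into NAD, fell where Gcn5 was lost. Total RNA levels were 1.44, 1.31, 1.46 and 1.46 in WT replicates 3 to 6, and 0.75, 0.73, 0.61 and 0.82 in ubp8_gcn5 (fell by 0.69 ± 0.07, adjusted p = 1.4e-09). The gcn5 arrays lay at 0.77, 0.87, 0.96 and 1.02, all below WT. Their change of -0.51 ± 0.07 was at the size threshold, with calls lost without WT replicate 5 (-0.50), WT replicate 6 (-0.50), gcn5 replicate 1 (-0.47) or gcn5 replicate 2 (-0.50), each just short of it. In spt3_gcn5 the arrays at 1.27 and 1.19 lay below 1.87 and 1.96 in WT 7 and 8 (fell by 0.69 ± 0.09, adjusted p = 5.4e-07). In nascent RNA NPT1 fell in the same strains, with gcn5 at 0.68, 0.64, 0.74 and 0.84 and ubp8_gcn5 at 0.39, 0.40, 0.55 and 0.57, against WT at 1.55, 1.51, 1.99 and 1.48. These are changes of -0.91 ± 0.10 (adjusted p = 7.7e-08) and -1.15 ± 0.10 (adjusted p = 8.5e-10). The test of nascent against total change called neither. In gcn5 it called 0% of all genes, so it says little about NPT1 there, and in ubp8_gcn5 it called 9.76%. The ubp8_gcn5 nascent values carry a division described below. Nascent NPT1 in spt3_gcn5 fell by 0.51 ± 0.13, a call lost without WT replicate 8 (-0.47) or spt3_gcn5 replicate 1 (-0.43), and in spt3 by 0.51 ± 0.12, lost without WT replicate 5 (-0.39) or spt3 replicate 2 (-0.45). Loss of Spt20 left nascent NPT1 inside the WT range, at 1.55, 1.55, 1.55 and 1.48, with a change of -0.10 (95% interval -0.29 to 0.09).

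PNC1, the nicotinamidase, moved in both directions, and in total RNA over the widest range of the 9 genes among the single-subunit strains. Its WT total RNA levels were also the most spread of the group: 1.67, 1.07, 2.17 and 2.41 in replicates 3 to 6. The spt7 arrays lay at 0.21, -0.05, -0.20 and 0.13, all below WT, which is 3.50-fold lower (fell by 1.81 ± 0.18, adjusted p = 3.1e-09). The spt20 arrays, at 0.88 and 0.83, were 1.96-fold lower (-0.97 ± 0.23, adjusted p = 6.1e-04). In spt3_gcn5 the values 0.69 and 0.93 lay under 2.55 and 2.68 in WT 7 and 8, which is 3.49-fold lower (-1.80 ± 0.26, adjusted p = 1.4e-06). The gcn5 arrays were higher than the WT mean, at 2.39, 2.96, 2.42 and 2.86 (0.83 ± 0.18, adjusted p = 4.7e-04), but one of them lay inside the WT range.

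PNC1 was also called higher in total RNA of ubp8 (0.73 ± 0.18), spt3 (0.72 ± 0.23) and spt8 (0.74 ± 0.23), whose arrays lay between 2.42 and 2.61. These 3 calls rested on WT replicate 4, the lowest WT array: without it the changes were 0.47, 0.46 and 0.49, none of them called. The spt3 call was also lost without spt3 replicate 1 (0.72) or replicate 2 (0.72), and the spt8 call without spt8 replicate 1 (0.71). WT replicates 7 and 8, at 2.55 and 2.68, lay inside that range or above it, and with all 6 WT arrays as one group the same changes were 0.46, 0.46 and 0.48, again not called. Nascent PNC1 gave -0.70 ± 0.17 in spt20, whose arrays, at 0.66 to 1.14, overlapped those of WT. It gave 0.75 ± 0.17 in ubp8, a call kept in 7 of 10 alternative settings. In gcn5 it gave 0.65 ± 0.17, kept in 8 of 10 and lost without WT replicate 4 (0.45). Both of these rises lost their call on the spike-in scale. It was lower by 1.24 ± 0.24 in spt3_gcn5. The 4 WT arrays kept their order between fractions, at 1.44, 1.02, 1.98 and 2.05 in nascent RNA.

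**Figure D3:**
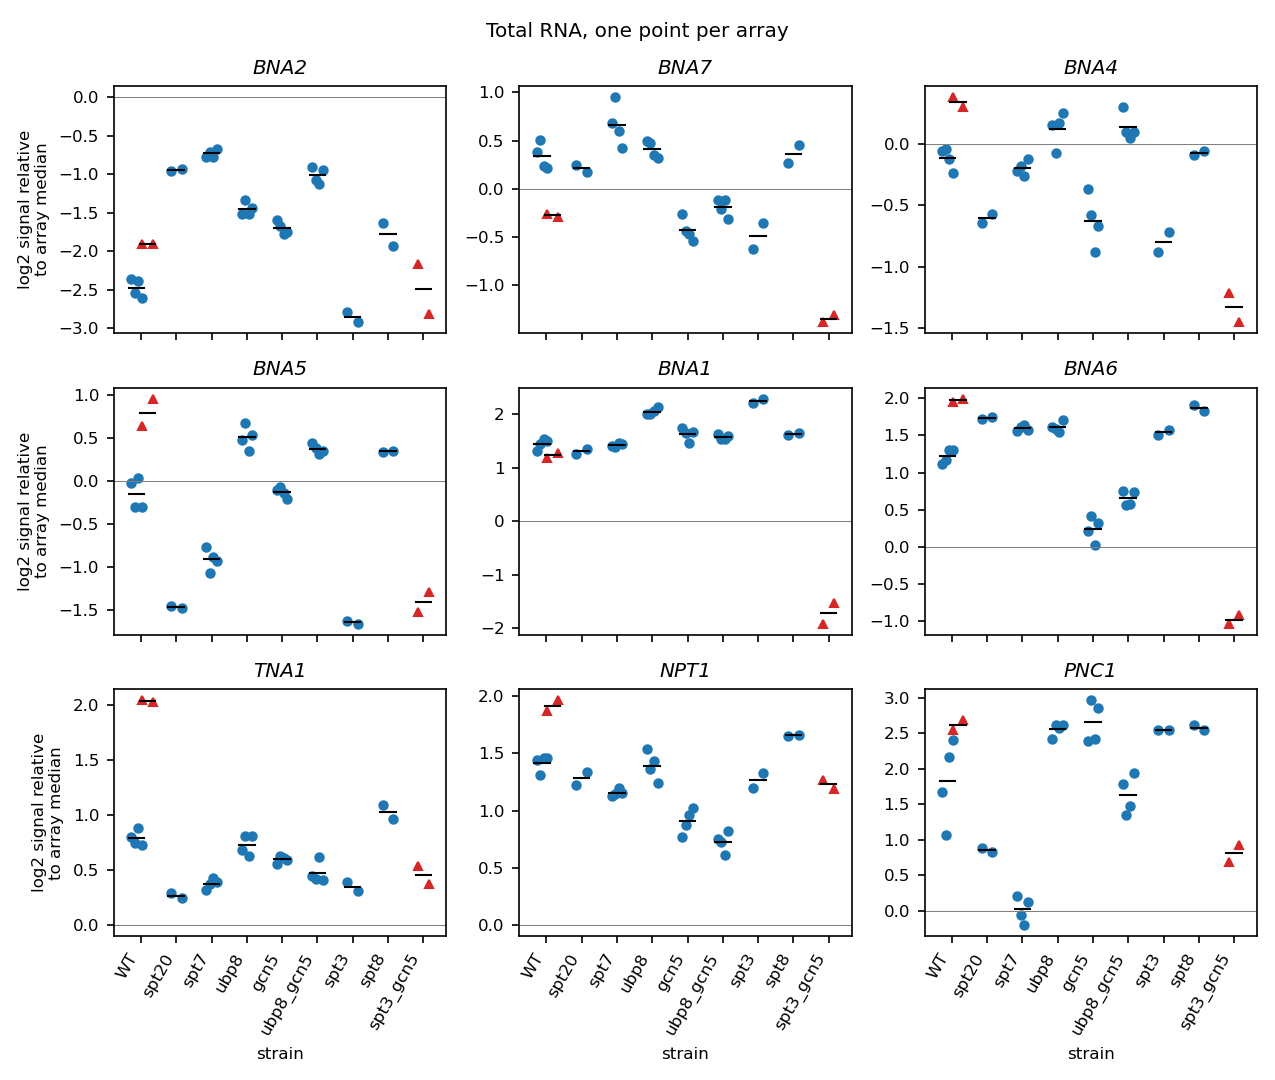
Log2 signal of each gene in total RNA relative to the array median (0, grey line), 1 point per array and a bar at the mean, by strain. Blue circles are the larger array set and red triangles the set of WT replicates 7 and 8 and spt3_gcn5. BNA1 and BNA6 in spt3_gcn5 sit about 3 log2 units below their WT, and PNC1 is lowest in spt7.

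**Figure D4:**
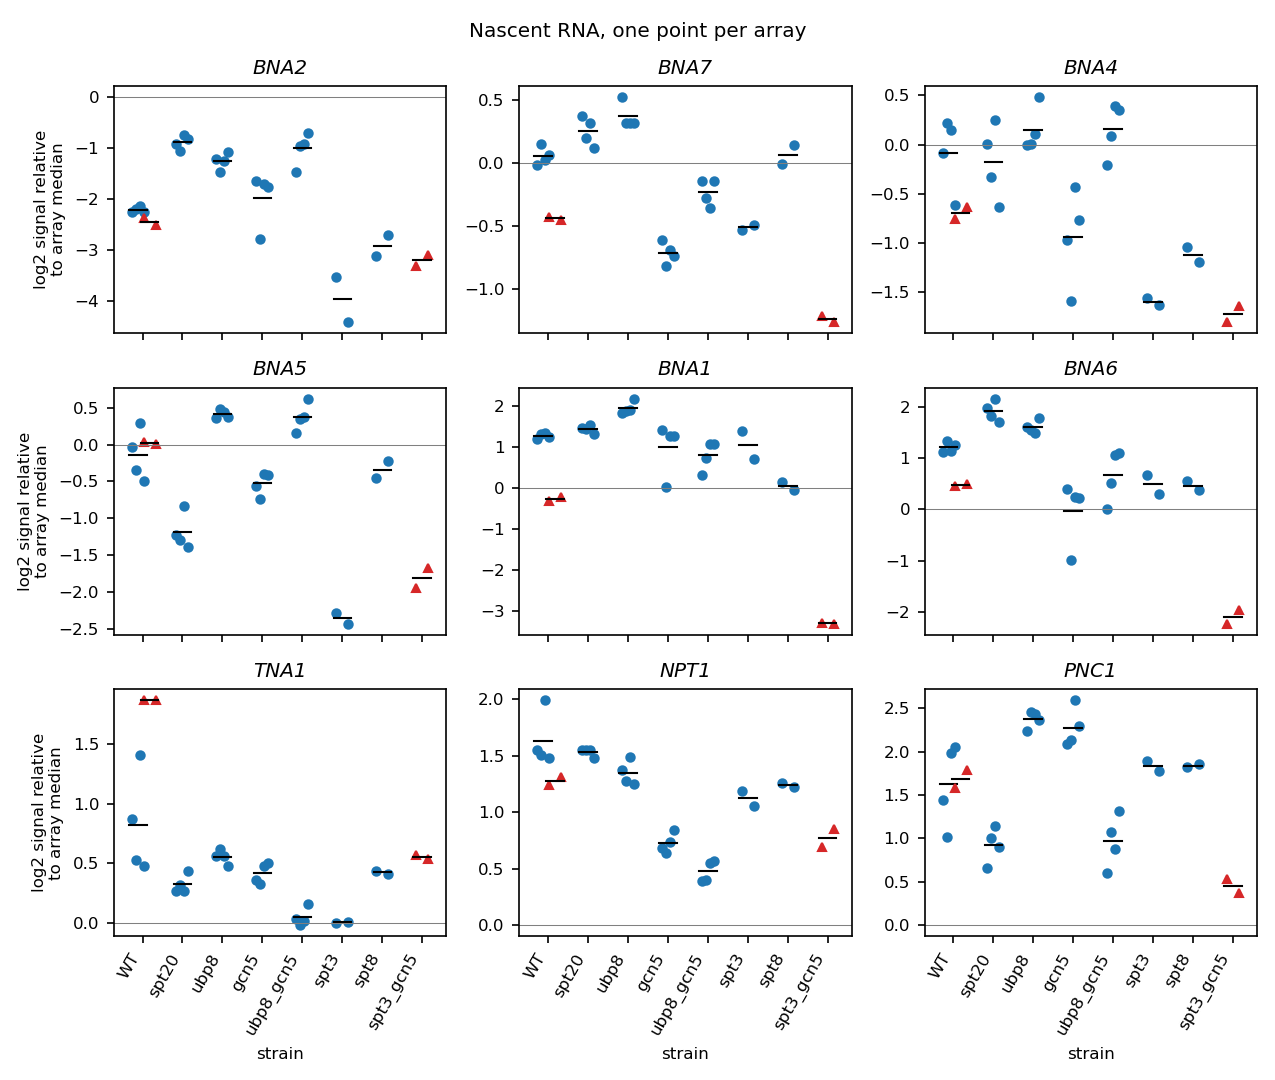
The same for nascent RNA, where spt7 is not shown. BNA5 is lowest in spt3, at -2.28 and -2.43, and single arrays of gcn5 lie far below the other 3 for BNA2, BNA1 and BNA6.

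The ubp8_gcn5 nascent values need care. Their digits show that the deposited S. cerevisiae values were divided by 1.85 for 2868 probe sets and by 2.4975 for 2629, a log2 gap of 0.43 between the classes. BNA1, TNA1, NPT1 and PNC1 belong to the class divided by 2.4975, and the other 5 members to the class divided by 1.85. With the division undone, nascent PNC1 in this strain was -0.39 and BNA5 0.35, neither called, where the deposited values gave -0.65 ± 0.17 and 0.52 ± 0.14. The falls of NPT1 and TNA1 were -0.89 and -0.51 with it undone, both called. BNA5 was called lower, at -0.70, when the deposited values were scaled to the spike-in. The division was found in the S. cerevisiae values, and scaling to S. pombe genes does not take it out. That -0.70 therefore still holds the division by 1.85. The deposited BNA5 rise was also lost without WT replicate 4 (0.45), WT replicate 6 (0.40) or ubp8_gcn5 replicate 4 (0.43).

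The 2 enzymatic activities of SAGA were compared directly between mutants. Levels in gcn5 were called lower than in ubp8 for 4 of 8 members in total RNA (7.88% of all genes called, 4.5% lower) and for 6 of 8 in nascent RNA (10.4% called, 7.41% lower). BNA6 differed most, by -1.38 ± 0.07 in total and -1.64 ± 0.22 in nascent RNA, followed in total RNA by BNA7 (-0.84 ± 0.09), BNA4 (-0.75 ± 0.09) and BNA5 (-0.64 ± 0.08). PNC1 gave a difference of 0.10 in total RNA (95% interval -0.26 to 0.46), not called. Adding the loss of Ubp8 to that of Gcn5 changed 2 of 8 in total RNA (5.87%): BNA4 rose by 0.76 ± 0.09 and PNC1 fell by 1.02 ± 0.18. BNA2 rose by 0.68 ± 0.10 in the all-gene fit. In nascent RNA 4 of 8 were called (15%), but the rises of BNA4, BNA5 and BNA6 there, 1.09, 0.90 and 0.70, became -0.04, -0.23 and -0.43 on the spike-in scale. Those spike-in values still hold the division by 1.85 of these genes in ubp8_gcn5 nascent RNA, described above. Spike-in values with the division undone are not given here. The BNA6 rise was also lost without gcn5 replicate 2 (0.38), ubp8_gcn5 replicate 3 (0.57) or ubp8_gcn5 replicate 4 (0.56). With the division of the ubp8_gcn5 nascent values undone, that BNA6 rise was not called either. Adding the loss of Gcn5 to that of Ubp8 lowered 4 of 8 in total RNA (11.2% of genes called, 6.26% lower), namely BNA6 (-0.95 ± 0.07), PNC1 (-0.92 ± 0.18), NPT1 (-0.66 ± 0.07) and BNA7 (-0.60 ± 0.09). In nascent RNA it lowered 6 (29.6% called, 25.6% lower), among them TNA1 by 0.51 ± 0.13, a call lost without ubp8 replicate 2 or ubp8_gcn5 replicate 2 (-0.48 for each). The TNA1 call was kept in 7 of 11 alternative settings, and lost with the division of the ubp8_gcn5 nascent values undone.

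Spt3 and Spt8, which act together on the TATA-binding protein, differed on these genes. Total RNA of spt3 and spt8, 2 arrays each, was called different for 5 of 8 members (9.52% of genes). BNA5 was lower in spt3 than in spt8 by 1.99 ± 0.12 (adjusted p = 1.2e-12), BNA7 by 0.85 ± 0.13, BNA4 by 0.73 ± 0.12 and TNA1 by 0.67 ± 0.08. BNA2 was lower by 1.07 ± 0.14 in the all-gene fit. BNA1 was higher in spt3 by 0.62 ± 0.10, a difference that vanished to -0.02 on the spike-in scale. In nascent RNA, where both strains share the odd S. pombe profile, 2 of 8 were called, both lower in spt3 (2.74% of genes called, 1.39% lower): BNA5 at -2.0 ± 0.20 and BNA7 at -0.57 ± 0.11, the latter lost without spt8 replicate 2 (-0.50). No S. pombe gene passed the rule between these nascent groups (0%).

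Spt7 and Spt20, the structural subunits, differed in total RNA for 2 of 8 members (8.39%). PNC1 was lower in spt7 by 0.84 ± 0.23, a call lost without spt20 replicate 2 (-0.81), and BNA5 was higher in spt7 by 0.55 ± 0.10. The spt20 group here holds 2 of 4 deposited arrays. The other 2, replicates 1 and 3, were left out because their labels are in doubt. Those 2 arrays held BNA2 at -2.82 and -2.58 and PNC1 at 3.04 and 2.92, against -0.96, -0.93, 0.88 and 0.83 in the arrays used. With them kept in, the spt20 change of PNC1 was 0.09 and the BNA5 difference -0.05. Set against ubp8_gcn5, the spt7 arrays differed for 4 of 8 members (15.8%): PNC1 by -1.61 ± 0.18, BNA5 by -1.28 ± 0.08, BNA6 by 0.93 ± 0.07 and BNA7 by 0.85 ± 0.09. Nascent RNA of spt20 set against that of gcn5 differed for 6 of 8 (24.8%), with BNA6 at 1.95 ± 0.22 and PNC1 at -1.34 ± 0.17 the largest, beside 21.4% of S. pombe genes called.

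The double deletions were also set against the sum of their single deletions on the log2 scale, a contrast chosen after the values were seen. In total RNA spt3_gcn5 departed from the sum for 5 of 8 members, all lower, where 38.6% of genes were called and 20.5% were called lower. BNA1 changed by 0.19 in gcn5, 0.81 in spt3 and -2.94 in spt3_gcn5, a departure of -3.94 ± 0.17 (adjusted p = 4.5e-16). PNC1 changed by 0.83, 0.72 and -1.80, a departure of -3.35 ± 0.43. BNA6 changed by -0.98, 0.32 and -2.95, a departure of -2.29 ± 0.16. TNA1 departed by -0.94 ± 0.14 and BNA5 by -0.74 ± 0.20. The departure of NPT1 was not called, at -0.02 (95% interval -0.33 to 0.28). The single and double mutants lie in different array sets, each with its own WT, and 12.2% of S. pombe genes departed by the same rule. With all 6 WT arrays as one group the departures were -4.23 for BNA1, -2.30 for PNC1 and -1.28 for BNA6, all called, but those of TNA1 and BNA5 turned to 0.71 and 0.53, neither called, and that of NPT1 was called at 0.64.

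For ubp8_gcn5 the departure in total RNA was called for 3 of 8 members (11.7% of genes, beside 15.5% of S. pombe genes). PNC1 changed by 0.83 in gcn5, 0.73 in ubp8 and -0.19 in the double deletion, a departure of -1.75 ± 0.26. BNA1 departed by -0.66 ± 0.10 and BNA4 by 0.52 ± 0.12. The departure of BNA6 was 0.02 (95% interval -0.17 to 0.21), not called. In nascent RNA the departures of PNC1 were -2.05 ± 0.24 in ubp8_gcn5 and -2.09 ± 0.41 in spt3_gcn5, where 3 members (16.3% of genes) and 5 members (33.9%) were called, beside 11.6% and 46.6% of S. pombe genes. The nascent ubp8_gcn5 departures rest on the deposited, divided values. Of the 5 nascent departures called in spt3_gcn5, 3 were higher than the sum (BNA4 at 1.34 ± 0.49, NPT1 at 0.91 ± 0.22 and BNA7 at 0.54 ± 0.19) and 2 were lower (PNC1, and BNA1 at -2.52 ± 0.49).

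**Figure D5:**
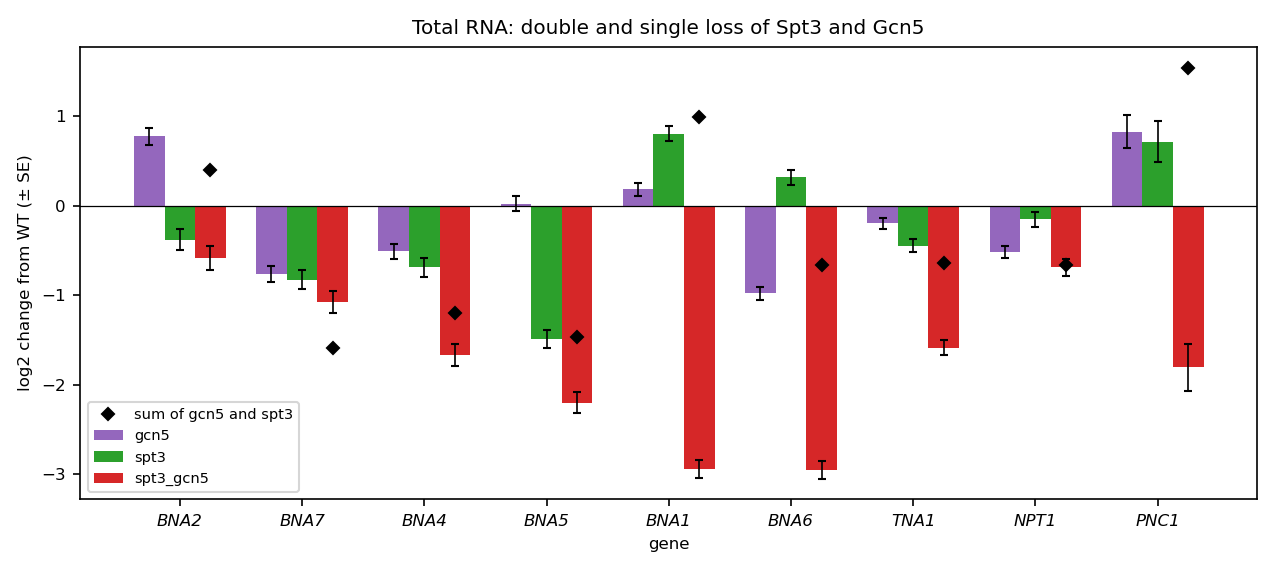
Log2 change from WT in total RNA (bars, ± SE) for gcn5, spt3 and spt3_gcn5, with the sum of the gcn5 and spt3 changes as black diamonds. The spt3_gcn5 bars of BNA1, BNA6 and PNC1 lie far below the diamonds, and that of NPT1 lies at its diamond.

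The change in nascent RNA was then tested against the change in total RNA. In WT itself none of the 8 members differed between fractions relative to the median gene (0.349% of genes called, and 2 members at an unadjusted p under 0.05). For spt20, ubp8, gcn5 and spt3_gcn5 limma called none, with 1, 2, 3 and 0 members at an unadjusted p under 0.05, where 0%, 0%, 0% and 0.473% of genes were called. For ubp8_gcn5 none was called among 9.76% of genes, with 4 members at an unadjusted p under 0.05. In spt3, the change from WT was lower in nascent than in total RNA for 4 of 8 (23.6% of genes called, 18.6% lower), and in spt8, 6 of 8 (36.4% and 30.3%). BNA1 (-1.42 ± 0.29), BNA6 (-1.39 ± 0.30) and BNA4 (-1.08 ± 0.29) led in spt8, and BNA6 (-1.05 ± 0.30) and BNA1 (-1.04 ± 0.29) in spt3. For BNA1 and BNA6 in spt3, and for all 6 members in spt8, the change was above 0 in total RNA and below 0 in nascent RNA. Without spt3 nascent replicate 2 all 4 spt3 calls were lost, with BNA4 at -0.79, BNA5 at -0.65, BNA1 at -0.70 and BNA6 at -0.86. The BNA4 call was lost without any 1 of 6 other arrays too (WT total 6, WT nascent 4 and 5, spt3 total 1 and 2, spt3 nascent 1), at -0.90 to -0.73. In spt8 the TNA1 call (-0.63 ± 0.17) was lost without WT nascent replicate 5 (-0.44). In the same contrasts 43.2% of S. pombe genes were called in spt3 and 45.1% in spt8. BNA2, in the all-gene fit, was lower in nascent than in total RNA by 1.39 ± 0.30 in spt3 and 1.4 ± 0.30 in spt8. None of the 9 members was called with the S. pombe component in the fit. With all 6 WT arrays as one group, BNA2 in spt8 was called, at -1.13, and BNA2 in spt3 (-1.12) and the other 8 members were not.

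Across the 17 strain and fraction means, the members that varied most alike were BNA1 and BNA6 (Pearson r = 0.87), BNA4 and BNA5 (0.82), BNA7 and BNA6 (0.80) and BNA1 and TNA1 (0.80). BNA2 and PNC1 were least alike, at -0.10. These values describe means that share WT arrays and cultures. The measured genes most like the mean of the 9 members were YDL144C (0.93), KGD2 (0.92), HDA1 (0.91), YJR015W (0.91) and MEF2 (0.91). For single members they were SNZ3 for BNA2 (0.97), FET5 for BNA6 (0.97), MEF2 for BNA1 (0.95), RGI1 for PNC1 (0.95), AIM25 for BNA4 (0.93), YPC1 for BNA5 (0.92), PHO5 for TNA1 (0.92), BET5 for NPT1 (0.90) and YNL040W for BNA7 (0.88).

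Other genes of NAD metabolism were read from lists by function. Of 10 tested genes of the shared last steps and the nucleoside route, at most 3 were called in total RNA of any strain. Over all genes, 6.12% (ubp8) to 32.9% (spt3_gcn5) were called. NMA1, a nicotinic acid mononucleotide adenylyltransferase, fell by 0.98 ± 0.11 in spt20 and 0.66 ± 0.09 in spt7. BNA3, a kynurenine aminotransferase that drains the pathway, rose by 0.94 ± 0.11 in spt7 and 0.86 ± 0.11 in gcn5 and fell by 0.57 ± 0.16 in spt3_gcn5. ISN1, an IMP 5'-nucleotidase that also acts on nicotinic acid mononucleotide, rose in 6 strains, by 0.52 to 0.78. NMA2, the paralog of NMA1, fell by 0.53 ± 0.10 in spt7 and 0.50 ± 0.10 in gcn5. The nucleoside enzymes PNP1 and URH1 went opposite ways in spt3_gcn5, by 0.90 ± 0.07 and -1.0 ± 0.19. In spt3_gcn5 1 of these 10 rose and 2 fell, with a median change of -0.06 against -0.03 for all genes, beside the 8 of 8 members that fell. Of all genes, 17.9% were called higher there and 15% lower. Of 4 tested kinase, carrier and hydrolase genes, POS5, the mitochondrial NADH kinase, rose in spt20, gcn5, ubp8_gcn5 and spt8 by 0.54 to 0.79. NPY1, an NADH pyrophosphatase, rose by 0.55 ± 0.08 in spt7 and fell by 0.63 ± 0.08 in gcn5 and 0.55 ± 0.11 in spt3_gcn5. UTR1, an NAD kinase, rose by 0.57 ± 0.11 in spt20.

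Of 6 tested sirtuin and Sum1 repressor genes, 2 fell in both spt20 and spt7, where 17.5% and 15.9% of all genes were called lower. HST3, a sirtuin that acts on histone H3, fell in 6 strains, by 0.67 (gcn5) to 1.46 (spt7), and SIR2, the silencing sirtuin, by 0.78 ± 0.12 in spt20 and 0.56 ± 0.10 in spt7. HST2, a mostly cytoplasmic sirtuin, rose by 0.76 ± 0.14 in ubp8, 0.52 ± 0.14 in gcn5 and 0.54 ± 0.14 in ubp8_gcn5. HST1 and SUM1, which act on the BNA genes, were not called in total RNA of any strain, and RFM1 was among the dim genes left out of the test. Among 10 tested genes of tryptophan synthesis and uptake, 5 rose and 1 fell in spt3, and 3 rose and 1 fell in spt3_gcn5. Of all genes, 8.76% were called higher and 6.56% lower in spt3, and 17.9% and 15% in spt3_gcn5. TRP3 rose by 1.03 ± 0.08 and 1.47 ± 0.09 there, and TRP5, which makes tryptophan itself, by 0.89 ± 0.08 and 0.64 ± 0.09. The amino acid permease TAT1 fell by 3.04 ± 0.11 in spt20, 2.80 ± 0.09 in spt7 and 3.00 ± 0.13 in spt3_gcn5. Of the 2 tested activators, BAS1, known as a regulator of adenine and histidine synthesis, rose by 0.80 ± 0.15 in spt3_gcn5, and MSN2, a stress factor, fell by 0.52 ± 0.07 in spt7.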

How the data were processed

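The authors deposited 68 columns of probe-set intensity on a linear scale. The submitters' processing notes name Expression Console, version 1.4.1, and say nothing here of the summarization settings. Probe sets were named through GEO's platform annotation, updated with RefSeq symbols. Left out were WT replicates 1 and 2 of both fractions (means of 3 with 4 and 5 with 6 in total RNA), all spt7 nascent arrays (rows out of order) and spt20 total replicates 1 and 3. Intensities were put on a log2 scale, centred on each array's S. cerevisiae median, and fitted in limma 3.58.1 (R 4.3.3; lmFit, eBayes) per fraction with a term for array set, the spread shared by all groups (28 nascent and 30 total arrays). The dimmest 25% of genes were filtered out, and p-values were adjusted by Benjamini-Hochberg over the 4087 genes left, or 4017 over both fractions. The fit was tested on simulated data first. The precision is limited by the number of arrays. Named were all 9 members, called genes of the NAD-related lists, and the genes most like the members. The members and lists were chosen with earlier results of these data known. Alternatives covered scaling, normalization, filter, offset, array sets, averaged or left-out arrays and a replicate block. Replicate numbers did not clearly pair strains with WT. Deviations of same-numbered WT and strain arrays correlated above 0.1 in 2 of 8 groupings in nascent RNA (median r -0.07). In total RNA 5 of 9 did (median r 0.12). Between nascent and total arrays of one strain and number, 14 of 26 did (median r 0.12), among them all 6 WT and all 4 ubp8 pairs. In a group of 2 arrays, WT replicates 7 and 8 included, both pairs give the same r by construction.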

Additional observations from a re-analysis of the deposited data

Results flagged for a closer look

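Each member was looked at in each group of 4 arrays for an array far from the rest, 90 looks in all, of which chance flags about 1 in 20. gcn5 nascent replicate 2 stood apart for 3 genes: BNA2 was at -2.79 (others -1.76 to -1.65), BNA1 at 0.02 (others 1.26 to 1.4) and BNA6 at -0.99 (others 0.22 to 0.39). Its S. pombe genes correlated with WT at 0.823. Nascent BNA7 in ubp8 replicate 1 was at 0.52, with the others at 0.32, and nascent NPT1 in spt20 replicate 4 at 1.48, with the others at 1.55, gaps of little size.

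The change from WT differed between nascent and total RNA, by the test of that difference, in spt3 and spt8. In spt3 the nascent minus total difference was -1.39 for BNA2, -0.83 for BNA4, -0.72 for BNA5, -1.04 for BNA1 and -1.05 for BNA6. In spt8 it was -1.40 for BNA2, -1.08 for BNA4, -0.70 for BNA5, -1.42 for BNA1, -1.39 for BNA6, -0.63 for TNA1 and -0.63 for NPT1. Beside them, 43.2% and 45.1% of S. pombe genes were called.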

How the results depend on the processing

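Over the alternatives, 28 to 42 of 56 member changes were called in nascent RNA (33 as reported), 26 to 49 of 64 in total RNA (33), and 38 to 62 of 88 between mutants (45). Leaving out single arrays gave 28 to 34, 26 to 33, and 44 to 47. For nascent minus total the count of 10 became 0 with all 6 WT arrays as one group, 5 with quantile normalization, 19 scaled to the spike-in and 0 with the S. pombe component as covariate, an alternative chosen after seeing the data, and 7 to 12 without single arrays. Between the WT fractions the count of 0 became 1 with all 6 WT arrays as one group and 2 with the S. pombe component, and stayed 0 without any single array. With the replicate number as a block the counts were 33 in nascent RNA, 34 in total RNA, 11 for nascent minus total (also 11 with strain and number as the block, whose correlation over both fractions was 0.262), 45 between mutants and 0 in WT. Scaled to the spike-in, the nascent split of 6 higher and 27 lower became 1 and 34, and that between mutants went from 12 and 33 to 4 and 57. These spike-in counts, and the 19 for nascent minus total, use the ubp8_gcn5 nascent values as deposited, with their division. With the S. pombe component the nascent split was 11 and 18. With all 6 WT arrays as one group the total RNA split of 10 and 23 became 4 and 26.

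Called changes that turned sign when scaled to the spike-in were BNA6 in spt20 nascent (-0.047) and total RNA (-0.26), BNA5 in ubp8_gcn5 nascent (-0.70), ubp8_gcn5 minus gcn5 in nascent RNA for BNA4 (-0.036), BNA5 (-0.23) and BNA6 (-0.43), and spt3 minus spt8 in total RNA for BNA1 (-0.023). With the S. pombe component they were BNA6 in spt3 (0.80) and spt8 nascent (0.66), BNA1 (0.025) and BNA2 (0.37) in spt8 nascent, and BNA4 (0.025), BNA1 (0.18) and BNA6 (0.42) in spt3 nascent minus total. With spt20 total replicates 1 and 3 kept in they were PNC1 in spt20 (0.092) and BNA5 in spt7 minus spt20 (-0.046). The spike-in values of ubp8_gcn5 nascent RNA, against WT and minus gcn5, still hold the division of the S. cerevisiae values. The causes were not tested. Besides these 16, 155 of the other single-gene values under an alternative and 79 without 1 array fell below the call with their direction kept.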
